A study of Mus musculus with 8 samples.

Results

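Gene-to-intergenic contacts are described here for mouse liver: paired-end tags (PETs) of RNA polymerase II (Pol II) ChIA-PET whose ends lay 8 to 100 kb apart on one chromosome, with exactly 1 end inside a protein-coding gene or within 2.5 kb of it. The other end lay outside every protein-coding gene so extended. There were 710 such PETs among 3075 PETs of that distance and 2753554 PETs in all. The deposited table contained 183 of them from experiment 1, 77 from experiment 2 and 450 from experiment 3. No measured density or contact strength was used to choose them. At the lower distance limit, 24 PETs of the same kind spanned 7 to 8 kb and 30 spanned 8 to 9 kb, and at the upper limit 33 spanned 90 to 100 kb and 34 spanned 100 to 110 kb.

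All libraries came from livers of wild type C57BL/6 mice, 3-6 months old, which were kept in a 12 h light and 12 h dark cycle and ate freely. Experiment 1 was made with 1.5 mM EGS, a crosslinker that bridges proteins over a longer span, together with 1% formaldehyde, and had 2 libraries from ZT06 (midday) and 2 from ZT18 (midnight). Experiment 2 used 1% formaldehyde alone and experiment 3 used EGS and formaldehyde as in experiment 1, each with 1 library from ZT06 and 1 from ZT18. Chromatin of 3-7 livers was combined for each precipitation with the Pol II antibody 8WG16, and whole liver was used, so a contact cannot be assigned to a cell type. The table names the experiment and the linker of a PET and no library or time point. Day and night were therefore not compared, values are for experiment pools, and intervals and p-values count PETs, not animals.

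Pol II gathers at gene starts, along transcribed genes and at many regulatory elements between genes, where it can make short noncoding transcripts. DNA between genes includes enhancers, which bind transcription factors and can lie close in space to the start of a gene they act on. Crosslinked chromatin can hold such a pair of segments together, and ligation then joins them into 1 PET. No enhancer mark was measured here, and no intergenic end is called an enhancer.

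The 250 bases before an annotated start are shown for 6 genes whose contacts recur in the account below, because in each the gene end of at least 1 PET lay close to a listed start. Insig1, Alas1, Fga and Snrk came from the rule for named genes, and Selenop and Slc29a1 were chosen after their values were seen. The sequences are RefSeq's on build GRCm38.p6, written 5′ to 3′ on the strand of the gene. RefSeq lists several starts for some genes, such as Selenop and Snrk, of which 1 is shown, and distances to a start are to the nearest listed one. Capitals mark a match on either strand to the E-box CACGTG, the nuclear receptor half-site AGGTCA, the TATA box TATAAA, the CCAAT box CCAAT or the GC box GGGCGG.
Insig1, chr5:28071162-28071411, plus strand: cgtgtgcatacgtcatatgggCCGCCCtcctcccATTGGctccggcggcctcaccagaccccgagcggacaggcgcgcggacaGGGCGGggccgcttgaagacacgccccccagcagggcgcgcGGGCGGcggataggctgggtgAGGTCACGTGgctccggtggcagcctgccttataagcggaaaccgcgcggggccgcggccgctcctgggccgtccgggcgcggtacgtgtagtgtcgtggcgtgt
Selenop, chr15:3270517-3270766, plus strand: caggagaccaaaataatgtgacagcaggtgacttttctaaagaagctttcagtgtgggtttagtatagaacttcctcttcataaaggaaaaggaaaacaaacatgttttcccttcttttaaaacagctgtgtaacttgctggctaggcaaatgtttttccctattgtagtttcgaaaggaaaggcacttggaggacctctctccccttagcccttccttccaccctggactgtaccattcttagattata
Slc29a1, chr17:45599619-45599868, minus strand: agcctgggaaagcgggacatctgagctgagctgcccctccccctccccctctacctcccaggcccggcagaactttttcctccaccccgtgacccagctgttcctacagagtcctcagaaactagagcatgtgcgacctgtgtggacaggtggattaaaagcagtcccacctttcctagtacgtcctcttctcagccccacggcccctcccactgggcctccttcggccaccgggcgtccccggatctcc
Alas1, chr9:106247955-106248204, minus strand: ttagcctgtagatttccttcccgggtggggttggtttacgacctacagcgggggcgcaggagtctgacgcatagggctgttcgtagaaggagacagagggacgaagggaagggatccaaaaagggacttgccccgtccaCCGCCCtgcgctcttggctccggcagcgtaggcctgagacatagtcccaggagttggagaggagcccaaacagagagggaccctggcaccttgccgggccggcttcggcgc
Fga, chr3:83025903-83026152, plus strand: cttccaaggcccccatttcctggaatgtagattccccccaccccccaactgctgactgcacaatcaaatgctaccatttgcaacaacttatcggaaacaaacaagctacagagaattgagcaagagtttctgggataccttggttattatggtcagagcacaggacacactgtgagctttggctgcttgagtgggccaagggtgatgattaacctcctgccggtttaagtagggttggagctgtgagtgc
Snrk, chr9:122117016-122117265, plus strand: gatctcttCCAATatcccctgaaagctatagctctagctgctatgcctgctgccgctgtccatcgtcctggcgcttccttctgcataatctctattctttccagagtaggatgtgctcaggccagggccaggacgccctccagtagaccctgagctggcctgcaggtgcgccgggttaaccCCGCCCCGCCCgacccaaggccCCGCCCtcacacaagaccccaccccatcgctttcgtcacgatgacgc

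The Insig1 promoter held the E-box at position -101, counted in bases from the start, and it overlapped the half-site at -105. It also held a CCAAT box at -216 and 3 GC boxes, at -229, -167 and -126. The Alas1 promoter held 1 GC box, at -111, and the Snrk promoter held a CCAAT box at -242 and GC boxes at -69, -64 and -47, the first and second of which overlapped. None of the 5 motifs was found in the windows of Selenop, Slc29a1 and Fga, which says only that these letters are not there. Gene ends of 8 to 100 kb contacts lay within 2.5 kb of 296 promoters with a sequence. Of these promoters 57.1% held the GC box, against 42.6% of 21263 promoters of the same length, and the median GC content was 62.8% versus 55.6%. The E-box was in 9.46% versus 6.63%, the half-site in 10.1% versus 12.8%, the TATA box in 10.8% versus 11.6% and the CCAAT box in 35.5% versus 35.4%. These shares are descriptions with no test, and their part in the contacts was not tested. Promoters near the gene ends of chance PETs were not counted. The shares therefore cannot be told apart from those of any PET end near a start.

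Gene-to-intergenic PETs were far more frequent than chance joining of ends gives. Chance is the mean number over all exchanges of partners between PETs of one experiment and linker. In experiment 1 the 183 PETs compared with 6.65 by chance, 27.5 times as many (95% exact Poisson interval 23.7 to 31.8). In experiment 3 the 450 PETs were 32.6 times the 13.8 of chance (29.7 to 35.8). In experiment 2 the 77 PETs were 3.70 times the 20.8 of chance (2.92 to 4.62), below both. The ratio of experiment 1 was 7.44 times that of experiment 2 (interval 5.67 to 9.84, exact conditional test, adjusted p = 3.8e-55), and that of experiment 3 was 8.83 times (6.92 to 11.4, adjusted p = 3.6e-103). Experiments 1 and 3 differed by a factor of 0.843 (0.706 to 1.003, adjusted p = 0.0511 by the exact test). Formaldehyde alone was used in 1 experiment, so crosslinking and experiment cannot be told apart. The linker subsets of experiment 1 also differed from each other, with 37.5 for ATGT and 20.7 for TAAG. They had 5.83 and 3.09 in experiment 2, and 33.9 and 31.5 in experiment 3.

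The excess was steepest at short range. Between 8 and 12 kb experiments 1, 3 and 2 had ratios of 173, 166 and 26.8. Between 20 and 40 kb these were 40.4, 48.6 and 3.36, and between 70 and 100 kb they were 7.91 (4.83 to 12.2), 16.9 (13.6 to 20.7) and 1.74 (0.972 to 2.86). In that last class the interval of experiment 2, with 15 PETs against 8.64 by chance, included 1. The median distance between the ends was 24324 bp in experiment 1, 34381 bp in experiment 3 and 49188 bp in experiment 2.

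**Figure D1:**
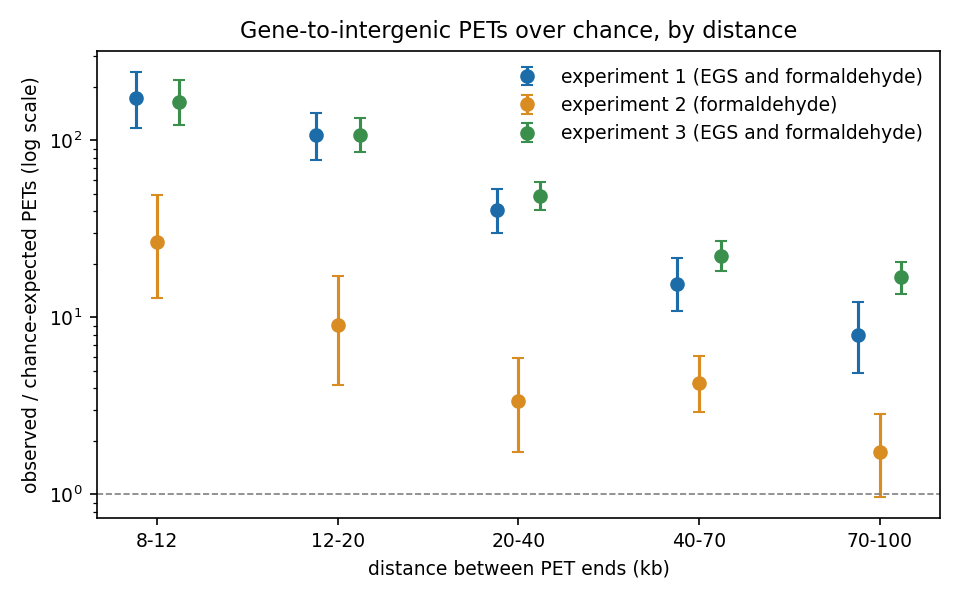
Observed gene-to-intergenic PETs divided by the chance expectation (log axis) in 5 classes of distance between the ends (kb), for each experiment; bars are 95% exact Poisson intervals and the dashed line is chance. Experiments 1 and 3 have overlapping intervals up to 70 kb, and experiment 2 is lower in every class, reaching 1.74 between 70 and 100 kb.

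Beside the other short contacts, those from a gene to intergenic DNA stood between the 2 remaining kinds. PETs with both ends in genes were 33.4, 4.90 and 43.9 times chance in experiments 1, 2 and 3, and PETs with neither end in a gene were 6.55, 2.67 and 16.6 times chance. Gene-to-intergenic PETs made up 25.6% of the 8 to 100 kb PETs in experiment 1, against 17.5% of chance PETs with the same distances (two-sided exact binomial test, adjusted p = 1.6e-07). In experiment 3 they made up 22.9% versus 18.9% (adjusted p = 1.5e-05, same exact test) and in experiment 2 19.4% versus 16.2% (adjusted p = 0.0885, exact test), which missed the threshold of 0.05. Without matching for distance the chance shares were 21.4%, 19.7% and 23.2%, and the observed share was then lower in experiments 2 and 3. In the TAAG subset of experiment 1 the share was 21.2% versus 17.4% (adjusted p = 0.0778, exact test).

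The gene ends lay at gene starts more often than those of chance PETs. Within 2.5 kb of an annotated start were 50.3% of gene ends in experiment 1 against 30.7% by chance (two-sided exact binomial test, adjusted p = 9.3e-08), 33.6% versus 22.4% in experiment 3 (adjusted p = 9.3e-08) and 27.3% versus 16.0% in experiment 2 (adjusted p = 0.0119). Within 2.5 kb of the 3′ end of a gene were 10.4%, 11.1% and 11.7% in experiments 1, 3 and 2 against 15.8%, 13% and 12.4%, none of which passed (adjusted p = 0.159, 0.393 and 1 by the same exact test). Counting either boundary, as strand is not needed then, gave 61.2% versus 49.7% in experiment 1 (adjusted p = 0.00279), 53.3% versus 38.8% in experiment 3 (adjusted p = 1.8e-09) and 39.0% versus 31.5% in experiment 2 (adjusted p = 0.177), again by exact binomial tests. In the TAAG subset of experiment 1 the boundary share was 57.3% versus 47.9% (adjusted p = 0.146, exact test). Starts were known for 17492 of 21887 protein-coding genes, and the genes of 165 PETs all lacked one.

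Gene ends also lay where Pol II ChIA-PET ends were dense. Density was counted in the other 2 experiments within 2.5 kb either side of the end and divided by the nuclear mean, so a PET never counted itself. A density of at least 2 was found at 67.8% of gene ends in experiment 1 against 43.6% by chance (exact binomial test, adjusted p = 9.3e-11). It was found at 45.3% versus 25.6% in experiment 3 (adjusted p = 5.9e-19) and 42.9% versus 24.8% in experiment 2 (adjusted p = 0.000517, exact tests). Median densities at the gene end were 2.87, 1.85 and 1.87 in experiments 1, 3 and 2. Each was counted in different experiments, so they do not rank the experiments, and medians for chance PETs were not computed here.

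**Figure D2:**
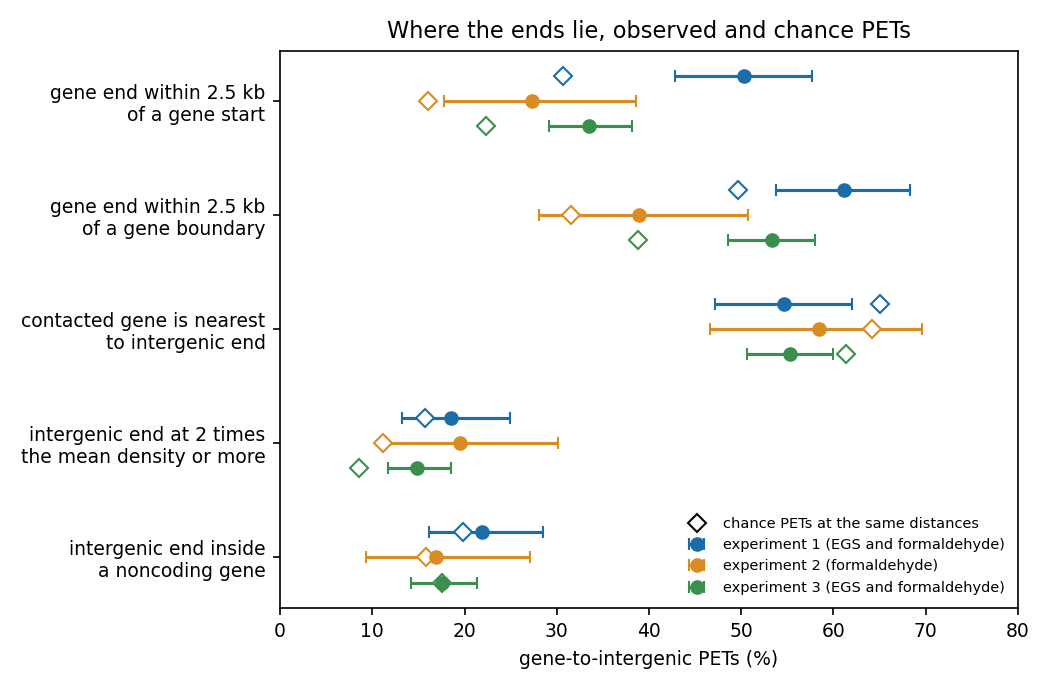
Share of gene-to-intergenic PETs (%, x axis) that met each of 5 criteria, by experiment, as filled points with 95% exact binomial intervals, beside chance PETs of the same distances as open diamonds. The observed share near a gene start is above chance in all 3 experiments, for example 50.3% versus 30.7% in experiment 1, while the share inside a noncoding gene differs from chance by less than its interval.

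The intergenic ends were mostly near a gene. The median distance from the intergenic end to the nearest protein-coding gene was 8398 bp in experiment 1, 12148 bp in experiment 2 and 11002 bp in experiment 3, and 42 of 710 lay over 50 kb away, up to 98378 bp. Within 10 kb of a gene were 55.2%, 41.6% and 46.4% versus 48.3%, 39.8% and 43.3% by chance, and none of these differences passed (exact binomial test, adjusted p = 0.193, 0.816 and 0.275). The joined gene was the nearest one for 394 PETs. For the other 316 another gene was closer, and in 119 of these a whole further protein-coding gene lay between the ends. The nearest gene was joined less often than chance in experiment 1, 54.6% versus 65.1% (exact binomial test, adjusted p = 0.0119), and in experiment 3, 55.3% versus 61.4% (adjusted p = 0.0134). In experiment 2 it was 58.4% versus 64.2% (adjusted p = 0.287, exact test). These calls depend on matching chance PETs for distance: unmatched, chance gave 52.3%, 58.0% and 52.4%, the direction was reversed and no experiment passed. They also missed the threshold within each linker subset of experiment 1 (55.4% and 53.7%) and in the ATGT subset of experiment 3 (58.3% versus 60.8%).

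Among PETs that joined the nearest gene, the intergenic end lay upstream of it in 27.3%, 27.3% and 26.7% of all gene-to-intergenic PETs in experiments 1, 2 and 3, against 28.9%, 27.0% and 26.7% by chance (adjusted p = 1 in each, exact binomial test). It lay downstream in 16.4%, 20.8% and 13.8% versus 20.6%, 21.4% and 19.7%. Without matching for distance, chance gave 16.3%, 19.1% and 16.7%, and the observed share was then lower only in experiment 3. The tests used the matched values, and the unmatched ones were not tested. The deficit downstream passed in experiment 3 (exact binomial test, adjusted p = 0.00400) and not in experiments 1 and 2 (adjusted p = 0.256 and 1). Within experiment 3 it passed in the TAAG subset, 11% versus 19.9% (exact test, adjusted p = 0.00135), and not in the ATGT subset, 16.6% versus 19.5% (adjusted p = 0.465).

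PET ends were only modestly dense at the typical intergenic end. The median density was 1.20, 1.04 and 1.14 times the nuclear mean in experiments 1, 2 and 3, the same values as for chance PETs. A subset was denser: at least 2 times the mean was reached by 14.9% in experiment 3 against 8.55% by chance (exact binomial test, adjusted p = 2.9e-05), 19.5% versus 11.2% in experiment 2 (adjusted p = 0.0430) and 18.6% versus 15.7% in experiment 1 (adjusted p = 0.309). When only ends of PETs between chromosomes were counted, these became 12.2% versus 10.2% in experiment 3 (adjusted p = 0.242, exact test) and 19.5% versus 11.5% in experiment 2 (adjusted p = 0.139), and experiment 2 also missed the threshold under 6 further alternatives given with the processing. Counted from ends of PETs at most 8 kb apart, an alternative chosen after seeing the data, the shares were 47.5% versus 39.4% in experiment 1 (adjusted p = 0.0420), 43.1% versus 30.3% in experiment 3 (adjusted p = 2.9e-08) and 31.2% versus 32.7% in experiment 2 (adjusted p = 0.903, exact tests). Such ends are sparse, so very few of them in a window reach 2 times the mean, and the chance shares are high as well.

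Around the intergenic end the density of other PET ends was then followed in 500 bp steps. In the central 1 kb around the intergenic end, ends of PETs at most 8 kb apart reached 4.42 times the nuclear mean in experiment 1 against 2.47 for chance PETs, and 5.33 against 1.78 in experiment 3. They reached 1.76 against 1.25 in experiment 2. Beyond 4 kb on the side away from the gene end the levels were 3.01, 2.59 and 2.68 in experiments 1, 3 and 2, where chance PETs had 1.73, 1.59 and 1.24. Beyond 4 kb on the side toward it they were 3.89, 4.66 and 2.43, where chance PETs had 2.27, 2.01 and 1.46. The centre was above the mean of both sides in experiments 1 and 3 and below both in experiment 2. In experiment 1 chance PETs had the same shape, and single steps toward the gene were as high as the centre in experiments 1 and 3. Counting all PET ends, the centre had 1.89, 1.37 and 1.96 in experiments 1, 2 and 3, where chance PETs had 1.63, 1.28 and 1.38. Chance PETs were not matched for distance here, 1 PET over 20 times the mean was left out in experiment 1 and 1 in experiment 3, and no test was made.

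**Figure D3:**
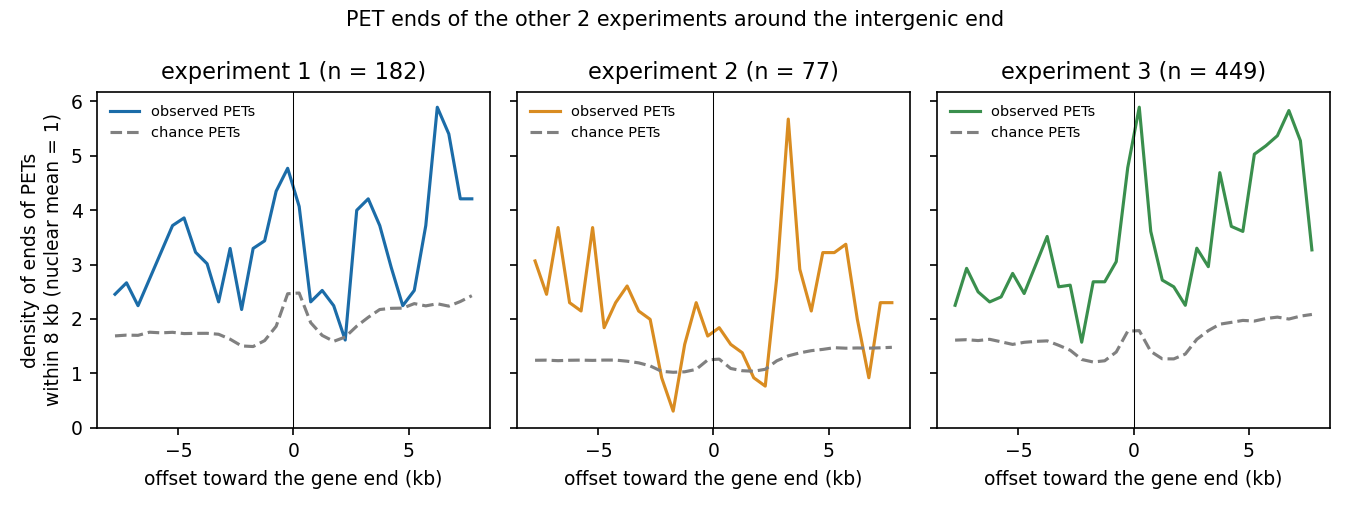
Density of ends of PETs at most 8 kb apart, from the other 2 experiments (y axis, nuclear mean = 1), by offset from the intergenic end toward the gene end (x axis, kb), for observed PETs (solid) and chance PETs (dashed). Experiment 3 has 5.33 in the central 1 kb against 1.78 for chance PETs and similar heights more than 5 kb toward the gene, and experiment 2 has no peak at the intergenic end.

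Set against its mirror image about the gene end, equally far away, the intergenic end was denser in 45.9%, 41.6% and 48.9% of PETs in experiments 1, 2 and 3. Ties counted as not denser, for chance PETs too, so these shares do not say how often the mirrored point was denser. Chance PETs gave 47.3%, 43.3% and 44.9% (exact binomial test, adjusted p = 0.818, 0.818 and 0.264). That mirrored point lay inside a gene in 72.1%, 83.1% and 72.0% of PETs. In experiment 3 the share passed with a gene flank of 1 kb or a window of 5 kb. Counted from ends of PETs at most 8 kb apart, it was 39.3% versus 30.5% in experiment 1 (exact test, adjusted p = 0.0152) and 37.3% versus 25.2% in experiment 3 (adjusted p = 3.9e-08). The share of intergenic ends inside an annotated noncoding gene was 21.9%, 16.9% and 17.6% versus 19.8%, 15.8% and 17.6% by chance (adjusted p = 1 in each, exact test). It comprised 132 PETs, 123 of them in a long noncoding RNA (lncRNA) gene.

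The PETs touched 666 of 21887 protein-coding genes, which is 3.04%. By experiment, 0.832%, 0.379% and 2.02% of genes had at least 1 in experiments 1, 2 and 3. Most genes, 593, had 1 PET, 73 had at least 2 and 11 had at least 3. The contacted genes had a median PET end density of 1.63 against 1.30 for all genes and a median span of 28635 bp against 17169 bp. At 43 PETs the gene end lay over more than 1 gene, and then each gene was counted. There were 39 genes with contacts in at least 2 experiments, of which 31 were shared by experiments 1 and 3, and 2, Insig1 and Hs3st3b1, had contacts in all 3. Without experiment 3, 262 genes had a contact and 3 had one in both remaining experiments, and without experiment 1 the latter number was 9.

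**Figure D4:**
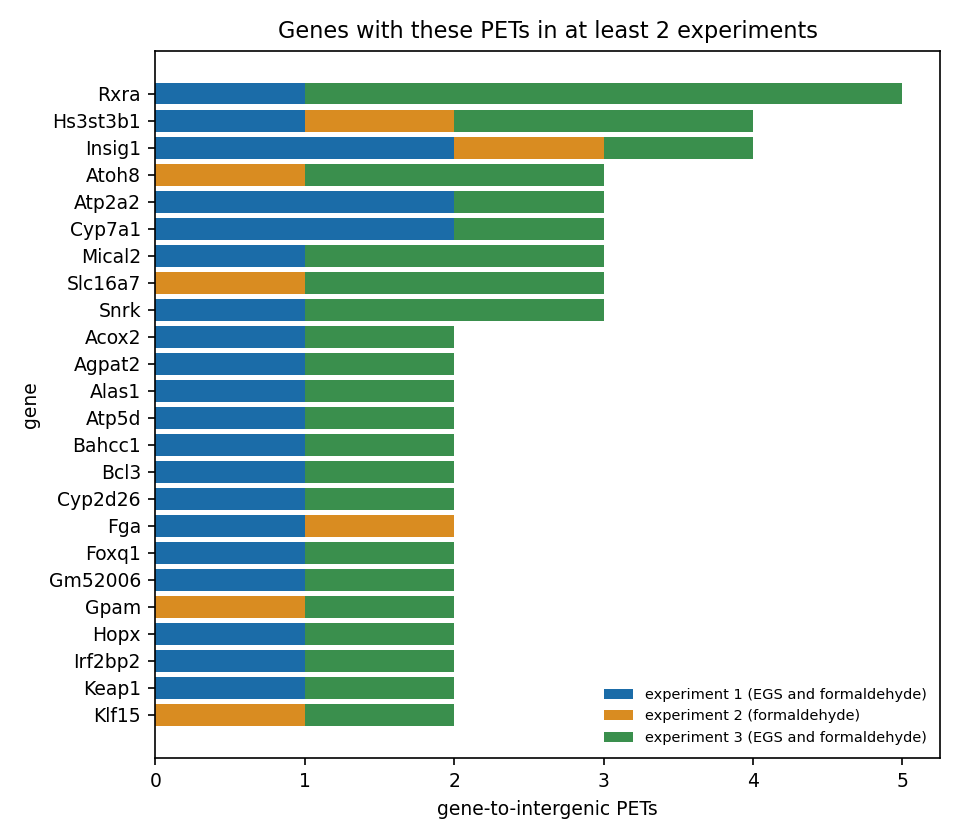
Number of gene-to-intergenic PETs (x axis) for 24 of the 39 genes with such PETs in at least 2 experiments, stacked by experiment. Rxra has 5, Hs3st3b1 and Insig1 have 4 each, and the remaining genes have 3 or 2.

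Genes of liver function were then taken by list. Of 17 transcription factors of hepatocytes 9 had a PET, 52.9% versus 3.04% of all genes, with 15 PETs against 0.164 expected by chance. That was 91.2 times chance, where all 710 PETs together were 17.2 times the 41.3 of chance. Other liver lists ranged from 16.9 for plasma proteins to 160 for bile acid genes, the latter from 3 PETs. Of the 15 PETs of the factors, 5 came from experiment 1, 1 from experiment 2 and 9 from experiment 3, and the chance number pools all 3. The factors had a median density over the gene of 4.23 times the nuclear mean. The 5 PETs of Rxra, which encodes the common partner of many nuclear receptors, all ran upstream from within 2724 bp of an annotated start. Foxa2, a pioneer factor of liver development, had 2 in experiment 1, from 179 and 211 bp of its nearest annotated starts to 18132 and 14597 bp downstream, both in the lncRNA gene 9030622O22Rik. Onecut2, a homeobox factor, had 2 in experiment 3, of 10937 and 10923 bp and both with a density of 2.70. Single PETs joined Hnf4a (36207 bp), Cebpb (16604 bp), Prox1 (27017 bp), Nr5a2 (71323 bp), Ppara (9800 bp) and Nr0b2 (17016 bp), all regulators of hepatocyte or bile acid and lipid genes. The 8 factors without one included Cebpa, although its density was 27.4.

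Metabolic genes were counted in the same way, beside 3.04% of all genes with a PET. Of 10 glucose metabolism genes 4 (40%) had 7 PETs, where chance gave 0.0886, a ratio of 79.0 beside 17.2 for all PETs. Tat, the tyrosine aminotransferase, had 3 in experiment 1, of which 1 from linker ATGT and 1 from TAAG ended close together, at 109971170 and 109970934 on chromosome 8. Their distances were 19166 and 23089 bp and their densities 0.598 and 0.717, and the third ran 51073 bp downstream past another gene. Slc2a2, the hepatocyte glucose transporter GLUT2, had 2, one on each side of the gene, and Pck1 and Fbp1, enzymes of gluconeogenesis, had 1 each, of 12259 and 23477 bp. Of 14 lipid genes 2 (14.3%) had PETs: Insig1 with 4, and Scd1, the stearoyl-CoA desaturase, with 2 of 54745 and 8411 bp. Of 6 bile acid genes 1 (16.7%) did, Cyp7a1, the rate-limiting enzyme of bile acid synthesis, with 3. Of 10 urea cycle and amino acid genes 2 (20%) did, Cps1 (12716 bp, density 5.62) and Hpd (13747 bp, density 1.42).

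Genes of secreted plasma proteins were dense in PET ends, with a median of 9.85 over 18 genes against 1.30 over all genes. Of the 18, 1 had a PET, 5.56% beside 3.04% of all genes: Fga, the fibrinogen alpha chain, had 2, and chance gave 0.118 for the list. The ratio of the list, 16.9, rests on these 2 PETs and cannot be ranked against the 17.2 of all PETs. From 604 and 651 bp before its start, Fga was joined 25070 bp upstream, past Fgg, in experiment 1 and 11158 bp downstream in experiment 2. Of 11 apolipoprotein genes, with a median density of 13.1, 2 had a PET, Apoa2 and Apoh with 1 each, which is 18.2% beside 3.04%. Alb, with a density of 27.8, and Apoa1, with 28.1, had 0.

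Of the circadian clock genes, Npas2 (87151 bp) and Cry2 (21917 bp) had 1 PET each, both in experiment 3. This was 1 of 3 BMAL1-CLOCK activators and 1 of 10 repressors, and the 4 D-box factors had 0, beside 3.04% of all genes. Lists this short do not allow a count of 0 or 1 to be read as a trait of clock genes. Of 9 clock output genes, Alas1, the rate-limiting enzyme of heme synthesis, had 2, upstream by 9261 bp in experiment 1 and 20851 bp in experiment 3. Of 17 stress and growth genes 3 (17.6%, beside the same 3.04%) had 1 each. Errfi1, a feedback inhibitor of EGF receptor signalling, was joined 97584 bp upstream from 488 bp of its start, where density was 70.4, the DNA damage gene Gadd45g 72415 bp downstream and the metallothionein Mt2 32262 bp downstream.

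The libraries carried hepatocyte signal, with a median density of 15.2 over 7 hepatocyte markers, of which Cps1 and Cyp2e1 had a PET. Median densities over markers of other liver cells lay between 0.908 and 1.63, and 0 of 4 endothelial, 0 of 4 Kupffer, 0 of 4 stellate, 0 of 4 cholangiocyte and 0 of 3 lymphocyte markers had a PET. With 3.04% of all genes having one, lists of this size are too short to read an absence from.

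Some contacts were found again at the same place. In 17 groups, with 36 PETs and at least 2 experiments in each, every PET had both ends within 5000 bp of those of another. PETs were chained, so ends of a group can spread further, as the gene ends of Cyp7a1 did over 5199 bp. The number of such groups by chance was not computed. Of the groups, 16 held experiments 1 and 3 and 1 held experiment 2. In 7 groups the density at the intergenic end was at least 2 in every PET. Each density was counted in the 2 experiments other than that of its PET. Densities within a group therefore come from different pools and do not rank the experiments. Values are given for the groups of genes named by rule, and those of Selenop, Slc29a1, Prdx6, Zbtb7a, Wwp1, Ski and Lamp2 were chosen after they were seen.

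Insig1 encodes an ER membrane protein that restrains cholesterol synthesis. Its start was joined to chr5:28055487-28055629, 142 bp between the ends, by 1 PET of experiment 1 (15402 bp) and 1 of experiment 3 (15238 bp). Densities there were 4.66 for the PET of experiment 1 and 10.1 for that of experiment 3, each counted in the other 2 experiments. The lncRNA genes Gm35223 and Gm26608 cover the place. The gene ends lay 381 and 687 bp from the start, whose promoter is printed above with its overlapping E-box and half-site. A further PET of experiment 1 ran 27759 bp from inside the gene to the same side, and experiment 2 had 1 of 8528 bp with a density of 0.830 at its intergenic end. All 4 ran upstream.

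Rxra was joined to chr2:27626778-27627098 by 1 PET of experiment 1 (47468 bp) and 1 of experiment 3 (49337 bp), with densities of 8.73 and 13.7. These ends lay 49347 and 49667 bp from the nearest gene, which is Rxra itself. Experiment 3 had 3 more, to 74897, 74380 and 92942 bp upstream, where Wdr5 was the nearer gene and densities were 2.56, 1.99 and 4.41.

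Atp2a2, the calcium pump of the endoplasmic reticulum, had 3 PETs from gene ends within 1003 bp of each other. They ended between 122525056 and 122529758 on chromosome 5, at distances of 23954, 28468 and 29577 bp with densities of 2.75, 2.51 and 2.28, and Ift81 was the nearest gene each time. Cyp7a1 had 2 PETs in experiment 1 (12564 and 14754 bp) and 1 in experiment 3 (17322 bp). They ended between 6258518 and 6261848 on chromosome 4, where densities were 0.853 to 1.67, below the threshold of 2. Selenop, which encodes the selenium carrier of plasma, was joined 40733 and 40938 bp upstream in experiments 1 and 3, with densities of 2.03 and 2.99. Gene ends lay 231 and 1128 bp from the nearest of its annotated starts.

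At several places the contact recurred while density was low. The intergenic ends of Cyp2d26, a cytochrome P450 gene, lay 65 bp apart in experiments 1 and 3 (44064 and 41926 bp), with densities of 0.956 and 0.285. Cyp2d40 was nearer, and 1 gene lay between. Slc29a1, a nucleoside transporter, was joined 9215 and 10092 bp upstream to ends 213 bp apart with densities of 0.956 and 0.711. Mical2 (28426 and 33976 bp), Hopx (35584 and 37636 bp), Wwp1, Ski and Lamp2 were likewise below 2 in both PETs. Prdx6, an antioxidant enzyme, was the group with experiment 2, with distances of 16846 to 18378 bp and densities of 0.996 to 2.07.

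Dense groups were also found for contacts of Atp5d, a subunit of mitochondrial ATP synthase (3.23 to 4.69), and of Zbtb7a (2.63 to 2.70). The Atp5d PETs ended between 80162568 and 80163070 on chromosome 10, closer to Cirbp, which starts at 80165990, than to Atp5d. A further dense group was that of Gm52006, whose PETs ended in the lncRNA gene 2310015A10Rik (5.02 to 8.39). In experiment 3 the gene end at Gm52006 also lay over Zfp36l1. Bcl3, a nuclear cofactor of NF-kappaB, spanned the threshold, with 0.956 and 4.55.

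The remaining genes named by rule had PETs from at least 2 experiments at different places. Hs3st3b1, a heparan sulfate sulfotransferase, had 4, all downstream, at distances of 9869 to 55733 bp and densities of 1.85 to 2.90. Snrk, a kinase related to AMPK, was joined 93876 bp upstream in experiment 1 and 83961 bp in experiment 3. Gene ends of these PETs lay 672 and 30 bp from the nearest of its annotated starts, and Pomgnt2 was the nearer gene. A further Snrk PET of experiment 3 spanned 52799 bp. Klf15, a factor of fasting metabolism, was joined 14079 bp upstream in experiment 2 and 81555 bp downstream in experiment 3, from 551 and 663 bp of its start. Gpam, which begins triglyceride synthesis, was joined 22684 bp upstream in experiment 2 and 44112 bp in experiment 3. Keap1, the sensor that restrains NRF2, was joined 13078 and 8161 bp downstream in experiments 1 and 3. Irf2bp2, Acox2, Agpat2, Bahcc1 and Foxq1 had 1 PET in each of experiments 1 and 3, and Atoh8 and Slc16a7 had 1 in experiment 2 and 2 in experiment 3.

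The 10 densest intergenic ends were, with 2 exceptions, in lncRNA genes, beside 123 of all 710 intergenic ends. These places were picked by their density in the 2 experiments other than that of the PET, which are not the same 2 for every place. Over all PETs the share inside noncoding genes did not differ from chance. The highest density, 336, was at an end in Gm33838 on chromosome 9 at 35305452, joined to Foxred1 and Srpr in experiment 3. There 71.3% of all ends within 2.5 kb fell in 1 stretch of 100 bp, against 5.64% to 18.2% at the other 9 places. Next came Neat1 (42.0), the nuclear paraspeckle RNA, joined to Frmd8 in experiment 1 over 31518 bp. Mir22hg (11.6), the host gene of a microRNA, was joined to Prpf8 over 36023 bp, with Tlcd2 nearer at 5583 bp. BC024386 (9.10) was joined to Nlrp6, Gm14963 (8.25) to Ehd1 and Snhg5 (6.69) to Syncrip. The exceptions were the Rxra place (13.7) and 1 beside the alcohol dehydrogenase Adh7 (7.40), and the Insig1 and Gm52006 places complete the 10.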

How the data were processed

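The authors deposited a single table in which every row is 1 PET, with the experiment, the linker letters and, for both ends, chromosome and position, and with 8 libraries pooled into 3 experiments. The values are positions, an "other" unit with no normalization. Bowtie2 and mm10 are named in the submitters' processing notes, with no role. Other steps, filters and versions are not stated there. Nuclear PETs numbered 474466, 1438852 and 837971 in experiments 1, 2 and 3, and 2265 mitochondrial PETs were set aside.

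Protein-coding genes and their spans came from RefSeq on GRCm38.p6, and strands and starts from RefSeq promoter records. Chance was the exact mean over all pairings of read-1 and read-2 ends within an experiment and linker, without PETs at most 8 kb apart, and chance shares were matched to the observed distances in 5 classes. Nothing was drawn at random. Observed shares were set against chance by two-sided exact binomial tests with Benjamini-Hochberg adjustment over 3 experiments, intervals are exact 95% intervals covering counting error only, and chance shares were taken as known. The procedure was tested on simulated data and on 30 shuffled tables. Distances are differences of positions. Python 3.11.15, NumPy 2.4.6, pandas 2.3.3, SciPy 1.17.1 and numba 0.67.0 were used.

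The contacts, gene lists and tests were chosen with earlier results of these data known. Named by rule were genes with PETs of different positions in at least 2 experiments, then those with most PETs, up to 25 in all. All list genes with a PET and the 10 densest intergenic ends, 1 for each place within 10 kb, were also named. Some named genes are not reported here. Measures that use strand, 15 distance classes and density from PETs within 8 kb were added after the table was seen. Alternatives were gene flanks of 1 and 5 kb, a minimum of 12 kb, near-duplicates (10 bp) counted once, partners exchanged across linkers, no distance matching, windows of 1 and 5 kb, ends between chromosomes only, each linker and each experiment left out. No genome was given, so intergenic sequence was not analysed here.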

Additional observations from a re-analysis of the deposited data

Results flagged for a closer look

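The excess of gene-to-intergenic PETs over chance differed between experiments under the same contrast. The ratio over chance in experiment 1 (EGS and formaldehyde) was 7.44 times that in experiment 2 (formaldehyde alone), with an interval of 5.67 to 9.84, and that in experiment 3 (EGS and formaldehyde) was 8.83 times that in experiment 2, with an interval of 6.92 to 11.4. Both passed an exact conditional test of the difference. PETs with both ends in genes had ratios of 33.4, 4.90 and 43.9, and those with neither 6.55, 2.67 and 16.6, in experiments 1, 2 and 3. Crosslinking and experiment cannot be told apart.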

How the results depend on the processing

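Of 237 values of 41 results under the alternatives, 184 stayed the same. Shares did so by keeping direction and side of the threshold, ratios by staying within their interval and gene counts by staying within a fixed factor. Among these values, some measures were rerun only with 15 distance classes. They were gene ends near a start, near a 3′ end or in dense places, the side of the nearest gene, and intergenic ends within 10 kb of a gene. Shares follow as observed against chance, by exact binomial tests. The ratio over chance moved to 23.3 with a minimum distance of 12 kb in experiment 1, to 37.5 and 20.7 in its ATGT and TAAG subsets, and to 5.83 in the ATGT subset of experiment 2. Without distance matching the share of gene-to-intergenic PETs was 19.4% against 19.7% in experiment 2 and 22.9% against 23.2% in experiment 3, the nearest gene was joined in 54.6% against 52.3%, 58.4% against 58.0% and 55.3% against 52.4% in experiments 1, 2 and 3, all reversed, and the boundary share of experiment 2 passed (39.0% against 25.6%), as it did with a flank of 1 kb (37.5% against 26.2%). In the TAAG subset of experiment 1 the share (21.2%) and the boundary share (57.3%) no longer passed. The nearest-gene share no longer passed in either linker subset of experiment 1 (55.4% and 53.7%), nor in experiment 3 with a flank of 1 kb (55.5%) or in its ATGT subset (58.3%). Dense intergenic ends in experiment 2 no longer passed with a flank of 5 kb (15.7%), a minimum of 12 kb (17.9%), windows of 1 kb (27.3%) and 5 kb (14.3%), ends between chromosomes (19.5%) or either linker (22.2% and 18%), and were reversed with ends of PETs within 8 kb (31.2% against 32.7%). In experiment 3 they no longer passed with ends between chromosomes (12.2%), and in experiment 1 they passed with ends of PETs within 8 kb (47.5%). Against the mirrored point, experiment 1 was reversed with a flank of 5 kb (47.9%), a minimum of 12 kb (49.7%), windows of 1 kb (52.5%) and 5 kb (51.4%), the ATGT subset (49.5%) and ends of PETs within 8 kb (39.3% against 30.5%, adjusted p = 0.0152 by the exact test). Experiment 2 was reversed with flanks of 1 kb (46.2%) and 5 kb (44.3%), a window of 5 kb (48.1%), the TAAG subset (44.0%) and ends of PETs within 8 kb (27.3%), and experiment 3 passed with a flank of 1 kb (53.1%), a window of 5 kb (51.3%) and ends of PETs within 8 kb (37.3%). The noncoding share, which never passed, was reversed in the TAAG subset of experiment 1 (18.3%), with a flank of 1 kb (15%) and in the ATGT subset (11.1%) of experiment 2. In experiment 3 it was reversed with flanks of 1 kb (17.5%) and 5 kb (19.5%), a minimum of 12 kb (17.7%), partners exchanged across linkers (17.6%), the TAAG subset (18.9%) and 15 distance classes (17.6%). The cause of these changes was not tested. Leaving out an experiment in turn lowered the 666 genes to between 262 and 593, and the 39 genes in at least 2 experiments to between 3 and 31, the lowest value each time without experiment 3. No paired analysis was possible because the table names no library, so the replicate numbers of the labels match no values. The number of PETs limits precision most in experiment 2, with 77, although its pool is the deepest.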
